A study of Mus musculus with 8 samples.

Results

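The 9 genes described here encode ligands of the tumor necrosis factor (TNF) superfamily: Lta, Ltb, Tnf, Cd40lg, Fasl, Tnfsf10, Tnfsf8, Tnfsf11 and Tnfsf14. They were taken by name, were 9 of the 54837 genes in the table, and all 9 passed the filter on low counts that left 18851 genes. RNA was sequenced from 8 sorts of splenic CD4 T cells of mice given tamoxifen on 5 consecutive days. GFPhi cells (n = 3) were sorted as FoxP3+ and GFP+, with TIM-3+ and FLAG+, from mice that carry the FSF-TIM-3 transgene together with Foxp3-eGFP-Cre-ERT2. GFPlow cells (n = 3) came from mice with the same 2 alleles and were also TIM-3+ and FLAG+, but FoxP3- and GFP-, although their titles call them Treg. WT cells (n = 2) were sorted as FoxP3+ and GFP+, without TIM-3 and FLAG, from mice with Foxp3-eGFP-Cre-ERT2 alone. All groups thus carried the Cre recombinase driven by Foxp3, a gene that defines regulatory T (Treg) cells, and all received tamoxifen. GFPhi and WT differ in the transgene and in the TIM-3 and FLAG gates at once, GFPlow and WT in the GFP and FoxP3 gates as well, so transgene and gate cannot be told apart. The labels do not say whether libraries of a group came from separate animals, nor their age, so p-values measure only the spread between these libraries.

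TNF superfamily ligands are mostly membrane proteins that assemble into trimers and cluster their receptors on a neighbouring cell; several are also shed or secreted. The receptors either carry a death domain, through which they can trigger apoptosis, or recruit TRAF adaptors that switch on NF-kappaB and MAP kinases. Activated T cells are a main source of these ligands: CD40 ligand licenses B cells and dendritic cells, lymphotoxins shape lymphoid organs, and Fas ligand kills Fas-bearing cells.

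Lta, Tnf and Ltb lie side by side in the major histocompatibility complex (GRCm38 coordinates). Lta, which encodes lymphotoxin alpha (ENSMUSG00000024402), is at chr17:35203165-35205351, and Tnf (ENSMUSG00000024401) is at chr17:35199381-35202007, both on the minus strand with a gap of 1157 bases. Ltb, which encodes the lymphotoxin beta subunit (ENSMUSG00000024399), is on the plus strand at chr17:35194439-35196320, 3060 bases from Tnf. Farther along the chromosome is Tnfsf14, the gene of LIGHT (ENSMUSG00000005824, chr17:57189492-57194177, minus strand). Fasl (ENSMUSG00000000817) is at chr1:161780689-161788495 on the minus strand, and Tnfsf10, which encodes TRAIL (ENSMUSG00000039304), at chr3:27317028-27342427 on the plus strand. Tnfsf8, the gene of CD30 ligand (ENSMUSG00000028362), is at chr4:63831308-63861347 on the minus strand. Tnfsf11, which encodes RANKL (ENSMUSG00000022015), is at chr14:78277445-78308043 on the minus strand, and Cd40lg (ENSMUSG00000031132) at chrX:57212143-57224042 on the plus strand. No exon of these 9 genes overlapped an exon of another annotated gene.

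Promoters of 8 of the 9 ligand genes were matched in RefSeq (GRCm38.p6), and 3 are shown because their genes gave different patterns: Lta and its neighbour Tnf, and Fasl. Each is the 250 bases before the start, 5′ to 3′ on the gene's strand: Lta at chr17:35205352-35205601, Tnf at chr17:35202008-35202257 and Fasl at chr1:161788496-161788745, all on the minus strand. Capitals mark GGAAA, the core motif bound by the activation-induced factor NFAT, and its reverse complement TTTCC. This core can also lie inside NF-kappaB sites.
Lta: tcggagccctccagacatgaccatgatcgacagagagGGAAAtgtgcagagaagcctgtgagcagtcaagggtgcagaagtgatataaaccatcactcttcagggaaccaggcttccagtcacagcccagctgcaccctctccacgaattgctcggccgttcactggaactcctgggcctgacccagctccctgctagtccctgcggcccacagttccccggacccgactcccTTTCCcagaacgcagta
Tnf: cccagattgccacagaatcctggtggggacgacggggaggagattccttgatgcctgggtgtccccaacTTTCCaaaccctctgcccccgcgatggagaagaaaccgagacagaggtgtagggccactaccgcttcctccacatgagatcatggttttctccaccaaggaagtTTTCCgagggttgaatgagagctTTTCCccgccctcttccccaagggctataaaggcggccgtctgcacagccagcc
Fasl: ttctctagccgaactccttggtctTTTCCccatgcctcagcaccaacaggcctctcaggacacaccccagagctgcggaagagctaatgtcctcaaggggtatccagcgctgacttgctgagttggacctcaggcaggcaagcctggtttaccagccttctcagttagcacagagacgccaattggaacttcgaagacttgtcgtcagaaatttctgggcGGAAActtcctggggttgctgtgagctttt
GGAAA was found on either strand in 8 of 8 of the ligand promoters and in 55.6% of 32851 promoters of the same length. In Tnf it began 181, 77 and 54 bases before the start, in Lta 213 and 17 bases and in Fasl 226 and 30 bases before it. TATAAA, the core of the TATA box, searched on both strands, was in 3 of the 8, Tnf at 29 bases, Lta at 167 bases and Tnfsf11 at 32 bases before the start, and in 12.4% of promoters. A match of letters is a description and not a bound site.

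Total counts ran from 44446215 to 55388756 per library, and a single ligand gene had between 194 reads (Fasl in WT library 1) and 36242 reads (Ltb in WT library 2). The gate genes followed the labels: Havcr2, the gene of TIM-3, stood at 1077 to 1791 CPM (TMM-scaled CPM, reads relative to the size of the library) in GFPhi, 127 to 538 CPM in GFPlow and 0.876 and 0.172 CPM in WT, and Foxp3 at 60.2 to 81.0, 1.97 to 4.82 and 41.7 and 63.2 CPM. T cell genes were present in every library, with Cd3e at 190.1 to 494 CPM and Cd4 at 109 to 436 CPM. WT library 1 stood apart, with 18599 genes detected against 21248 to 22185 in the others and 6.54% of counts from mitochondrial genes against 2.35% to 2.78%. Its Pearson r with other libraries was 0.853 to 0.885, against 0.925 to 0.963 among the rest, so values of both WT libraries are given singly. Xist, the transcript of the inactive X chromosome, stood at 237 CPM in GFPhi library 3, 184 in GFPlow library 3 and 242 in WT library 2, and at or below 0.263 elsewhere; WT library 2 also held 6.16 CPM of the Y-linked Ddx3y.

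Among the 9 ligands, Ltb was the most abundant per length in every library. On the scale of CPM per kilobase of exon, Ltb stood at 415.9 ± 5.57 in GFPhi, 332.8 ± 15.9 in GFPlow (SD, n = 3 each) and 307.5 and 412 in WT. Lta came next in GFPhi, at 144.9 ± 13.1 CPM per kilobase, but at 32.3 ± 2.21 in GFPlow, against 155 and 167 in WT. Cd40lg stood at 31.6 ± 1.86 CPM per kilobase in GFPhi and at 118 ± 5.84 in GFPlow, where it took the place after Ltb. In GFPhi the order then ran Tnfsf8, Cd40lg, Tnf, Tnfsf11, Fasl, Tnfsf14 and Tnfsf10, with overlapping libraries between Cd40lg and Tnf, Tnfsf11 and Fasl, and Tnfsf14 and Tnfsf10. In GFPlow it ran Tnfsf8, Lta, Fasl, Tnf, Tnfsf11, Tnfsf14 and Tnfsf10, with overlap between Tnfsf8 and Lta and between Tnfsf11 and Tnfsf14. Both WT libraries had Ltb, Lta, Tnfsf8 and Cd40lg as the first 4; Fasl was the lowest in WT library 1 and next to lowest in WT library 2. Ltb exceeded 99.4% of all tested genes by mean CPM per kilobase in GFPhi, 99.2% in GFPlow and 98.6% in WT, and Tnfsf10 exceeded 68.2%, 53.0% and 68.4%.

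As a share of the summed CPM per kilobase of the 9 genes, Ltb was 56.4% to 60.1% in GFPhi, 57.6% to 58.4% in GFPlow and 49.7% to 56.2% in WT. The remainder was divided differently: Lta made up 18.7% to 21.1% in GFPhi, 5.47% to 5.74% in GFPlow and 22.8% to 25.0% in WT. Cd40lg made up 4.12% to 4.64% in GFPhi, 20.4% to 20.7% in GFPlow and 4.07% to 6.78% in WT. Fasl took 1.44% to 1.84% in GFPhi, 3.89% to 4.30% in GFPlow and 0.525% to 0.937% in WT. The summed level itself was 694 to 733 CPM per kilobase in GFPhi, 555 to 610 in GFPlow, and 619 and 733 in WT. Within a library the ratio of Cd40lg to Lta per length was 0.199 to 0.239 in GFPhi, 3.57 to 3.79 in GFPlow and 0.179 and 0.271 in WT, so the order of these 2 ligands was opposite in GFPlow.

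**Figure D1:**
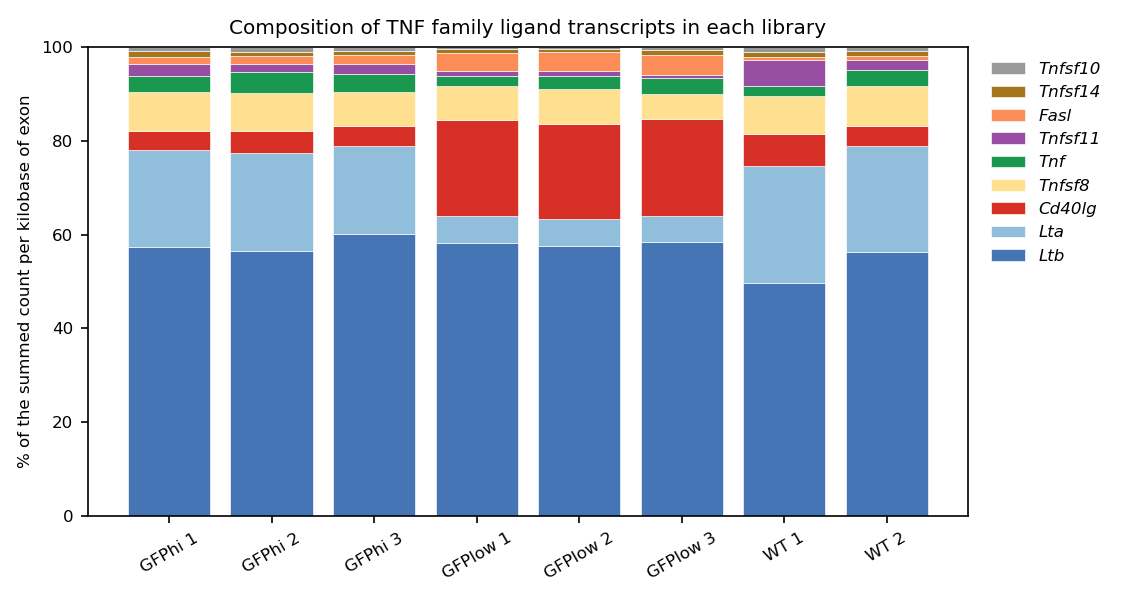
Share of each ligand gene in the summed CPM per kilobase of the 9 genes (y axis, percent), one stacked bar for each of the 8 libraries. Ltb fills more than any other gene in every bar, Lta is 5.47% to 5.74% in GFPlow and 18.7% or more elsewhere, and Cd40lg is 20.4% to 20.7% in GFPlow and 6.78% or less elsewhere.

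Comparing GFPhi with GFPlow asks how the ligand genes differ between TIM-3+ cells with and without FoxP3. The 2 groups also differed in the level of Havcr2, given above, so FoxP3 state and Havcr2 level cannot be told apart. Lta rose 4.48-fold and Tnfsf10 rose 2.46-fold in GFPhi, and Cd40lg was 3.72-fold lower. These were 3 of the 9 ligands past an adjusted p of 0.05 (edgeR's quasi-likelihood test, Benjamini-Hochberg over 18851 genes), where 2.26% of all tested genes passed, 1.63% higher and 0.626% lower. The libraries of the groups did not overlap for 8 of the 9, against 30% of all tested genes. Of these, 6 were higher in GFPhi, against 16% of all tested genes, and 2 were lower, against 14%. The median log2 difference was 0.63 over the ligands and 0.01 over all tested genes. The 3 comparisons between groups share libraries with each other. Each p also rests on the spread within all 3 groups, so that of GFPhi over GFPlow includes the spread between the WT libraries.

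Comparing GFPlow with WT sets FoxP3- cells with the transgene beside FoxP3+ cells without it. Fasl rose 4.60-fold and Cd40lg rose 3.28-fold in GFPlow, while Lta was 4.97-fold lower and Tnfsf11 4.59-fold lower, and Tnfsf10 fell by 1.29 on the log2 scale. These were 5 of 9 ligands, where 3.3% of all tested genes passed, 1.08% higher and 2.23% lower. The libraries did not overlap for 7 of the 9, against 40.3% of all tested genes. Of these, 2 were higher in GFPlow, against 21.1% of all tested genes, and 5 were lower, against 19.2%. The median log2 difference was -0.56 over the ligands and 0.02 over all tested genes. With limma voom and sample quality weights, 1 of the 5 calls held, that of Lta, among 72 genes called.

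Comparing GFPhi with WT asks what differs between FoxP3+ cells that carry TIM-3 and those that do not. No ligand passed the test, and 0% of all tested genes did. At an unadjusted p under 0.05 edgeR listed 1 of the 9 ligands, Fasl, and 2588 genes, 13.7% of those tested. limma voom called 0 ligands and 0 genes. DESeq2 called 320 genes and 0 ligands, but its filter gave an adjusted p to 2039 genes and to 3 of the 9 ligands. The other 6, Fasl, Tnfsf10, Tnf, Cd40lg, Tnfsf11 and Tnfsf14, had no adjusted p and so could not be called. The libraries did not overlap for 3 of 9 ligands, against 28.1% of all tested genes, so the share of ligands was near the background. Fasl and Tnf were higher in every GFPhi library, against 15.6% of all tested genes, and Lta was lower, against 12.6%. A p that misses the threshold with 2 WT libraries that differ from each other does not show that the ligands were alike.

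**Figure D2:**
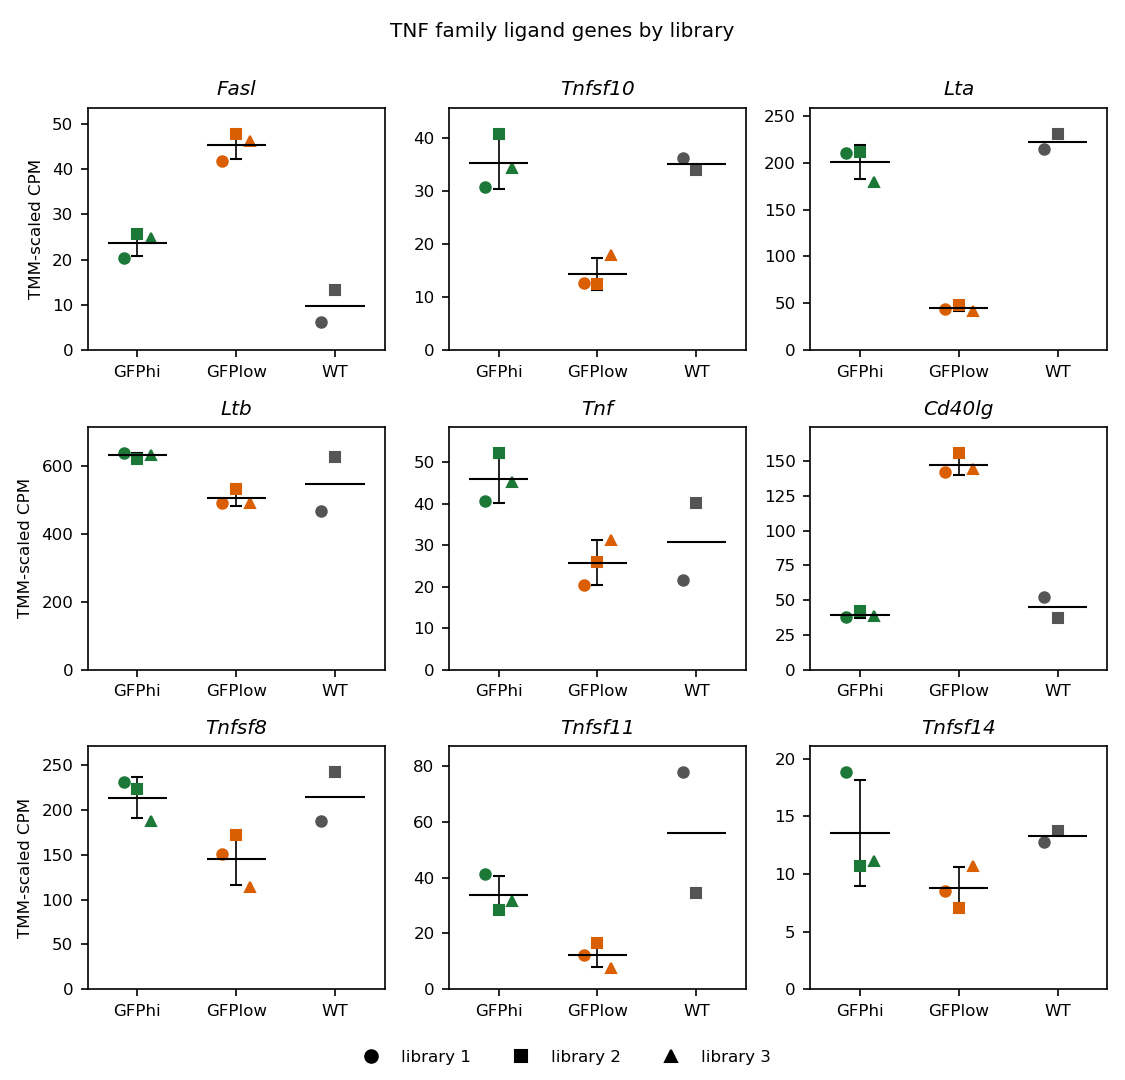
TMM-scaled CPM (y axis) of each of the 9 ligand genes in GFPhi, GFPlow and WT libraries; points are libraries, lines are means, and bars are the SD in the groups of 3 libraries. Lta lies at 42.1 to 48.1 CPM in GFPlow and at 179 CPM or more elsewhere, and Cd40lg at 142 to 156 CPM in GFPlow and at 52.4 CPM or less elsewhere.

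Lymphotoxin alpha, the product of Lta, is secreted as a homotrimer that binds the TNF receptors or held at the membrane in a heterotrimer with lymphotoxin beta. Lta stood at 210.2, 212 and 179 CPM in the GFPhi libraries, at 44.1, 48.1 and 42.1 CPM in the GFPlow libraries, and at 214 and 231 CPM in the WT libraries. The 3 GFPlow libraries lay together and far below all others, and no GFPhi library overlapped WT, which lay slightly higher. The log2 difference of GFPhi over GFPlow was 2.16 ± 0.16 (SE; adjusted p = 0.00138, edgeR), and that of GFPlow over WT was -2.31 ± 0.17 (adjusted p = 0.00125). For GFPhi over WT it was -0.15 ± 0.17 (adjusted p = 0.652). Both calls of Lta held under all 22 alternative settings, with log2 differences of 2.12 to 2.24 and -2.47 to -2.23. In these bulk libraries, fewer cells that express a gene and less RNA per cell cannot be told apart.

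Ltb encodes the partner subunit that anchors lymphotoxin at the membrane, where the heterotrimer binds the lymphotoxin beta receptor. Its level was 638, 621 and 633 CPM in GFPhi, 489.6, 532 and 492 CPM in GFPlow, and 466 and 625 CPM in WT. The GFPhi libraries were all above GFPlow, and WT library 1 was the lowest of all 8 while WT library 2 lay among GFPhi. GFPhi over GFPlow gave a log2 difference of 0.32 ± 0.18 (SE; adjusted p = 0.609, edgeR), and GFPlow over WT gave -0.11 ± 0.20 (adjusted p = 0.739). The ratio of Lta to Ltb per length was 0.311 to 0.373 in GFPhi, 0.0938 to 0.0990 in GFPlow, and 0.405 and 0.503 in WT. Lta and Ltb, whose products form one heterotrimer, were thus in a lower ratio in every GFPlow library than in any other library.

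Tnf, the gene of the inflammatory cytokine itself, stood at 40.6, 52.2 and 45.2 CPM in GFPhi, 20.4, 26.0 and 31.2 CPM in GFPlow, and 21.6 and 40.2 CPM in WT. Each GFPhi library was above each GFPlow library, while WT library 1 lay within the range of GFPlow and WT library 2 just below the lowest GFPhi library. On the log2 scale GFPhi over GFPlow was 0.83 ± 0.27 (SE; adjusted p = 0.231, edgeR), and for GFPlow over WT it was -0.26 ± 0.30 (adjusted p = 0.602). Although Tnf lies 1157 bases from Lta, the ratio of Lta to Tnf per length was 4.71 to 6.13 in GFPhi, 1.60 to 2.56 in GFPlow, and 6.81 and 11.7 in WT. Tnf was the lowest of its group in the libraries numbered 1 of GFPhi and GFPlow, which held 153 and 195 CPM of the immediate early gene Fos, against 4.22 to 10.8 CPM in the other libraries. The part of this in the Tnf values was not tested.

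CD40 ligand, encoded by Cd40lg, is the helper T cell signal to B cells and dendritic cells. Its gene stood at 37.8, 42.2 and 38.7 CPM in GFPhi, 142, 156 and 144 CPM in GFPlow, and 52.4 and 37.3 CPM in WT. The GFPlow libraries were far above all others, while GFPhi and WT overlapped. Cd40lg was lower in GFPhi than in GFPlow by a log2 difference of -1.90 ± 0.18 (SE; adjusted p = 0.00247, edgeR), and GFPlow exceeded WT by 1.71 ± 0.21 (adjusted p = 0.00528). The call against GFPlow held under all 22 alternative settings, with log2 differences of -1.95 to -1.86. The call of GFPlow over WT held with each of the 8 libraries left out, and was lost with limma voom (adjusted p = 0.0573), with only the libraries compared (0.0832, and 0.201 with the replicate number as a block) and against a log2 change of 1 (0.0639). Cd40lg is X-linked, and in the 3 libraries with high Xist it stood at 38.7, 144 and 37.3 CPM. These values were close to the other libraries of GFPhi and GFPlow and below WT library 1. Each group held 1 such library, and the part of sex in the Cd40lg values was not tested.

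Fas ligand, encoded by Fasl, kills cells that carry the death receptor Fas. Fasl stood at 20.4, 25.6 and 24.8 CPM in GFPhi, 41.8, 47.8 and 46.2 CPM in GFPlow, and 6.29 and 13.3 CPM in WT. The 3 groups did not overlap: GFPlow was highest, GFPhi in between and WT lowest. Fasl in GFPlow exceeded WT by 2.20 ± 0.33 on the log2 scale (SE; adjusted p = 0.0138, edgeR). The call held in 15 of 22 alternative settings. It was lost when any GFPlow library was left out (adjusted p = 0.0510 to 0.0578) and with limma voom (0.324). Also without a call were the fits with only the libraries compared (0.109, and 0.0558 with the replicate block) and the test against a log2 change of 1. Without WT library 2 the log2 difference was 2.87. GFPhi over GFPlow gave -0.94 ± 0.28 (adjusted p = 0.167), and GFPhi over WT gave 1.26 ± 0.32 (adjusted p = 0.348), with differences of 1.90 to WT library 1 and 0.82 to WT library 2 taken singly.

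Natural killer (NK) and CD8 T cells also express Fasl, so their markers were read beside it. The summed level of 7 NK markers was 2.82 to 6.79 CPM in GFPhi, 19.7 to 93.6 CPM in GFPlow, and 9.31 and 1.84 CPM in WT libraries 1 and 2. All 5 NK markers tested had a lower fitted level in GFPhi than in GFPlow, with a median log2 difference of -3.38, also with Klre1, which was at 0 in GFPhi, at its limit. Of these, 1, Klrb1c, passed the test (log2 difference -3.38, adjusted p = 0.0353, edgeR), 4 had an unadjusted p under 0.05, and DESeq2 and voom called 2 each. Of all tested genes, edgeR called 0.626% lower there and listed 11.6% at an unadjusted p under 0.05. For GFPlow over WT edgeR called 1 of the 5 NK markers, Eomes, with 3 at an unadjusted p under 0.05. DESeq2 called 3 of them and voom 0. For all tested genes, the shares in edgeR were 1.08% called higher and 25% at an unadjusted p under 0.05. In GFPlow libraries 1, 2 and 3 the NK sum was 26.5, 19.7 and 93.6 CPM and Ncr1, a defining NK marker, 0, 0 and 7.81 CPM, beside 41.8, 47.8 and 46.2 CPM of Fasl. The sum of 4 CD8 markers was 19.8 to 23.7 CPM in GFPhi, 37.4 to 66.5 CPM in GFPlow, and 46.8 and 16.2 CPM in WT, with none of 4 called by edgeR. For GFPhi over GFPlow all 4 had a negative log2 difference, with a median of -4.02; 2 had an unadjusted p under 0.05, and DESeq2 and voom called 1 each. Cd8a itself was at or below 4.05 CPM in all libraries. The part of NK and CD8 cells in the Fasl values was not tested.

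TRAIL, the product of Tnfsf10, is another ligand of a death receptor. Tnfsf10 stood at 30.8, 40.8 and 34.4 CPM in GFPhi, 12.6, 12.6 and 17.9 CPM in GFPlow, and 36.1 and 34.0 CPM in WT. All GFPlow libraries were below all others, and the WT libraries lay within the range of GFPhi. The log2 difference of GFPhi over GFPlow was 1.30 ± 0.22 (SE; adjusted p = 0.0215, edgeR), and that of GFPlow over WT was -1.29 ± 0.23 (adjusted p = 0.0267). Each Tnfsf10 call was lost when any GFPhi library or GFPlow library 1 or 2 was left out, 5 of the 8 such fits. Adjusted p were then 0.0744 to 0.117 for GFPhi over GFPlow and 0.0576 to 0.116 for GFPlow over WT. Of 22 alternative settings, 15 kept the call of GFPhi over GFPlow and 11 that of GFPlow over WT. The former held with only the libraries compared (adjusted p = 0.00395, edgeR) and with voom (0.000622). It was lost with the replicate block (0.0794) and against a log2 change of 1 (0.707). The ratio of Fasl to Tnfsf10 per length was 1.71 to 1.96 in GFPhi, 7.01 to 10.4 in GFPlow, and 0.473 and 1.06 in WT, so the balance of the 2 death ligands lay toward Fasl most in GFPlow.

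RANKL, encoded by Tnfsf11, acts on dendritic cells and on the precursors of bone-resorbing osteoclasts. Tnfsf11 stood at 41.3, 28.5 and 31.6 CPM in GFPhi, 12.3, 16.5 and 7.75 CPM in GFPlow, and 77.7 and 34.3 CPM in WT. GFPlow was below all other libraries, and the high WT value was that of the library that stood apart. The log2 difference of GFPlow over WT was -2.20 ± 0.41 (SE; adjusted p = 0.0307, edgeR). Without WT library 1 it was -1.49 (adjusted p = 0.0518), and of the 8 such fits only that without WT library 2 kept the call, at -2.65; the other 7 gave adjusted p of 0.0518 to 0.123. For GFPhi over GFPlow the difference was 1.47 ± 0.38 (adjusted p = 0.115).

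CD30 ligand, the product of Tnfsf8, and LIGHT, the product of Tnfsf14, are costimulatory ligands of activated T cells, and neither gene passed the test in any of the 3 comparisons. Tnfsf8 stood at 231, 223 and 188 CPM in GFPhi, 151, 173 and 114 CPM in GFPlow, and 188 and 242 CPM in WT. GFPlow was below all other libraries, by a log2 difference of GFPhi over GFPlow of 0.55 ± 0.21 (SE; adjusted p = 0.329, edgeR) and of GFPlow over WT of -0.56 ± 0.23 (adjusted p = 0.182). Tnfsf14 stood at 18.8, 10.7 and 11.1 CPM in GFPhi, 8.52, 7.07 and 10.7 CPM in GFPlow, and 12.8 and 13.7 CPM in WT. Its GFPhi and GFPlow libraries overlapped, with 1 GFPhi library standing above the rest, and the log2 difference was 0.63 ± 0.30 (adjusted p = 0.488). For GFPhi over GFPlow, 0 of 22 alternative settings called Tnfsf14, while 5 called Tnfsf8, among them limma voom (adjusted p = 0.0256). With only the libraries compared, Tnfsf8 missed the threshold (adjusted p = 0.0533, edgeR).

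**Figure D3:**
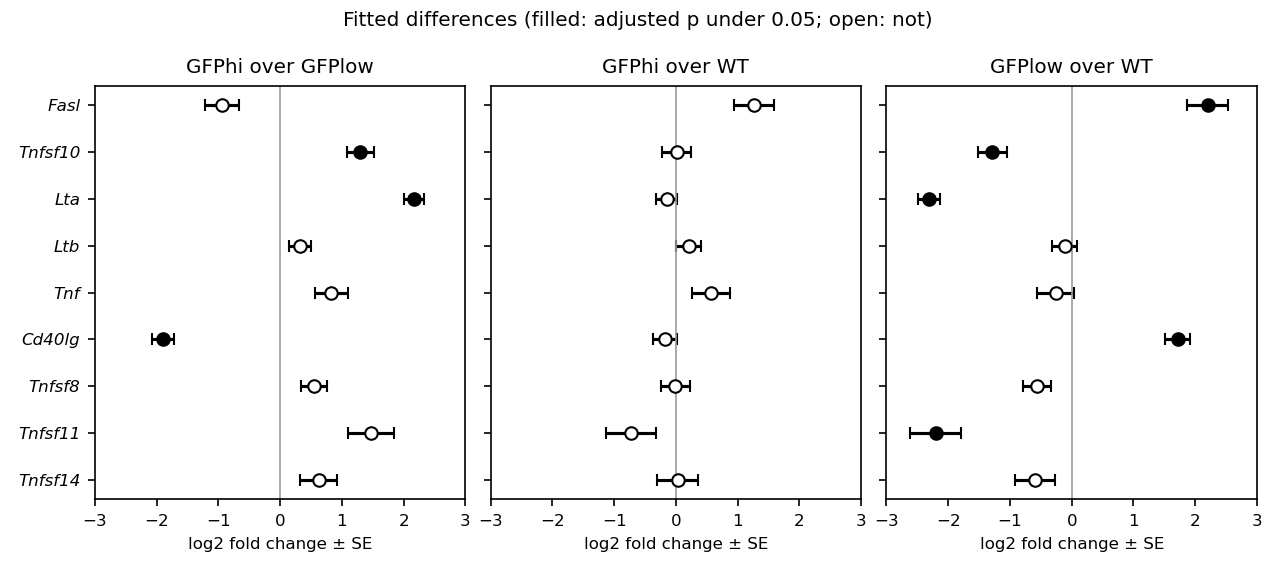
Log2 difference of each ligand gene (x axis) with its SE in the 3 comparisons of groups; filled points have an adjusted p under 0.05. Filled are Lta (2.16), Tnfsf10 (1.30) and Cd40lg (-1.90) for GFPhi over GFPlow, and Fasl (2.20), Cd40lg (1.71), Tnfsf10 (-1.29), Tnfsf11 (-2.20) and Lta (-2.31) for GFPlow over WT; no point is filled for GFPhi over WT.

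The number of ligands called between GFPhi and GFPlow differed with the libraries in the fit, which also changed how many genes were tested. With WT library 1 left out, 7 of 9 ligands were called, Lta, Tnfsf10, Ltb, Tnf and Tnfsf11 higher and Cd40lg and Fasl lower in GFPhi, where 9.66% of all tested genes were called. Adjusted p were then 0.00287 for Fasl, 0.00680 for Ltb, 0.0224 for Tnf and 0.0141 for Tnfsf11, with log2 differences of -0.95, 0.32, 0.82 and 1.47. Without WT library 2 the count was also 7, where 9.64% of genes were called, and it was 7 with only the GFPhi and GFPlow libraries, where 12.3% were called. For GFPlow over WT, 5 of 9 were called without WT library 1, where 5.88% of genes were, with Ltb (log2 difference -0.30, adjusted p = 0.0438) in place of Tnfsf11; without WT library 2 the 5 were called among 43.9% of all tested genes. For GFPhi over WT, none of 9 was called without WT library 1; without WT library 2, 5 of 9 were, Fasl, Ltb and Tnf higher and Cd40lg and Tnfsf11 lower, where 40.1% of all tested genes were called.

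Other ligands of the family, not among the 9, were 9 genes of which 5 were tested. Tnfsf15, the ligand of the receptor DR3, and Cd70, the ligand of CD27, had no read in any GFPlow library. Tnfsf15 had 150, 84 and 53 reads in GFPhi, 0 in GFPlow, and 152 and 179 in WT. Cd70 had 64, 81 and 50 reads in GFPhi, 0 in GFPlow, and 55 and 93 in WT. Against a limit of 3 reads over the group, Tnfsf15 was at least 92.2-fold higher in GFPhi than in GFPlow and, in GFPlow, at least 206-fold lower relative to WT (adjusted p = 0.0105 and 0.00701, edgeR), and Cd70 at least 62.6-fold higher and at least 87.2-fold lower (adjusted p = 0.00990 and 0.00749). Without GFPhi library 2 the calls of both against GFPlow were lost (adjusted p = 0.0541), as was that of Cd70 without GFPhi library 1 (0.0576) and with the replicate number as a block (0.0794). For GFPlow over WT, the calls of Cd70 and Tnfsf15 were lost with only the libraries compared (adjusted p = 0.121 and 0.0832), and that of Cd70 with the replicate block (0.0838). The list's median log2 difference was 1.31 for GFPhi over GFPlow, -0.48 for GFPhi over WT and -1.86 for GFPlow over WT, also with both genes at their limits. Cd70 lies 39714 bases from Tnfsf14 on chromosome 17, which did not pass the test.

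Of 12 receptors of the 9 ligands, 9 were tested and 2 rose in GFPhi over GFPlow, where 1.63% of all tested genes were called higher. Tnfrsf1b, the TNF receptor TNFR2 that Treg cells carry, stood at 137, 124 and 132 CPM in GFPhi, 44.2, 41.1 and 53.3 CPM in GFPlow, and 61.6 and 128 CPM in WT (log2 difference of GFPhi over GFPlow 1.50 ± 0.27, SE; adjusted p = 0.0303, edgeR). Tnfrsf8, the CD30 receptor of the Tnfsf8 product, stood at 8.47, 3.03 and 6.47 CPM in GFPhi, 0.822, 0.670 and 0.174 CPM in GFPlow, and 8.34 and 5.60 CPM in WT. GFPlow had the lowest values of both receptors, and WT library 1 lay nearer to GFPlow for Tnfrsf1b but not for Tnfrsf8. The log2 difference of Tnfrsf8 was 3.42 ± 0.65 for GFPhi over GFPlow (adjusted p = 0.0359) and -3.64 ± 0.68 for GFPlow over WT (adjusted p = 0.0307), the only receptor of the 9 called there, and none was called for GFPhi over WT. Both calls against GFPlow were lost without any 1 of the 6 GFPhi and GFPlow libraries (adjusted p = 0.0653 to 0.156). That of Tnfrsf8 for GFPlow over WT was lost without any GFPlow library or GFPhi library 1 or 3 (0.0651 to 0.111). Of 22 alternative settings, 14 kept the call of each receptor against GFPlow, and 10 that of Tnfrsf8 for GFPlow over WT. With only the GFPhi and GFPlow libraries in the fit, adjusted p were 0.000207 for Tnfrsf1b and 0.0114 for Tnfrsf8 (edgeR). With all libraries and the replicate number as a block, they were 0.0987 and 0.0910. The list's median log2 difference was -0.03 for GFPhi over GFPlow, 0.47 for GFPhi over WT and 0.47 for GFPlow over WT, against 0.01, 0.08 and 0.02 over all tested genes.

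The receptors of Fas ligand and of TNF with death domains, Fas and Tnfrsf1a, were looked at after their values were seen. Fas stood at 107, 107 and 109 CPM in GFPhi, 71.7, 82.7 and 67.4 CPM in GFPlow, and 245.6 and 113 CPM in WT. Fas was thus lowest in GFPlow, where Fasl was highest, and its log2 difference of GFPhi over GFPlow was 0.54 (adjusted p = 0.530, edgeR) and of GFPlow over WT -1.28 (adjusted p = 0.0622). Tnfrsf1a stood at 21.6 to 31.4 CPM in GFPhi, 31.4 to 45.9 CPM in GFPlow, and 10.8 and 19.9 CPM in WT, with no call.

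Genes downstream of the receptors and around the ligands gave few calls. None of 17 adaptors and signalling proteins and none of 8 tested proteases that cut or help to cut ligands from the membrane passed the test in any comparison; median log2 differences of the adaptors were 0.13 for GFPhi over GFPlow, 0.47 for GFPhi over WT and 0.28 for GFPlow over WT, and those of the proteases 0.20, 0.16 and 0.47. At an unadjusted p under 0.05 edgeR listed 0, 2 and 1 of the adaptors and 1, 1 and 2 of the proteases in these 3 comparisons; DESeq2 called 0, 0 and 1 adaptors and 1, 0 and 2 proteases, with an adjusted p for 7 adaptors and 0 proteases in GFPhi over WT, and voom 3, 0 and 0 adaptors and 2, 0 and 0 proteases. Of all tested genes, edgeR listed 11.6%, 13.7% and 25% at an unadjusted p under 0.05 in these 3 comparisons. The summed level of the adaptors was 2123 to 2227 CPM in GFPhi, 1956 to 2001 CPM in GFPlow, and 1354 and 2082 CPM in WT. Of 9 regulators of AU-rich mRNAs, which include the mRNA of Tnf, 1 rose in GFPlow over WT: Zfp36, the gene of tristetraprolin, stood at 107, 78.8 and 82.8 CPM in GFPhi, 157, 127 and 106 CPM in GFPlow, and 38.8 and 59.1 CPM in WT (log2 difference of GFPlow over WT 1.41 ± 0.28, SE; adjusted p = 0.0353, edgeR). Its GFPhi libraries lay between the other groups but for an overlap with GFPlow in 1 library. The medians of that list were 0.09 for GFPhi over GFPlow, -0.04 for GFPhi over WT and -0.05 for GFPlow over WT. Of all tested genes, 1.08% were called higher in GFPlow over WT.

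Transcription factors known to act on ligand genes were 18, and all passed the filter on low counts. Their action on the ligand genes in these cells was not tested. Tbx21, which encodes T-bet, the factor of type 1 helper T cells, stood at 6.07, 7.57 and 4.48 CPM in GFPhi, 17.5, 15.3 and 18.1 CPM in GFPlow, and 1.59 and 1.78 CPM in WT. The 3 groups did not overlap and stood in the same order as for Fasl: GFPlow, GFPhi and WT. The log2 difference of Tbx21 was -1.49 ± 0.27 for GFPhi over GFPlow (SE; adjusted p = 0.0295, edgeR) and 3.33 ± 0.34 for GFPlow over WT (adjusted p = 0.00379). Eomes, the related factor of cytotoxic cells, is also among the NK markers above. Eomes stood at 3.81, 2.37 and 1.07 CPM in GFPhi, 10.4, 7.40 and 7.52 CPM in GFPlow, and 0.292 and 0.259 CPM in WT. It rose in GFPlow over WT by 4.93 ± 0.66 (adjusted p = 0.00830, edgeR). Runx3, a factor of the cytotoxic lineage, stood at 30.4 to 35.9 CPM in GFPlow, against 9.18 and 11.6 CPM for WT (log2 difference 1.67 ± 0.34, adjusted p = 0.0409).

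Rel, the NF-kappaB subunit that Treg development needs, ran the other way. It stood at 121, 82.0 and 106 CPM in GFPhi, 49.6, 51.5 and 45.0 CPM in GFPlow, and 84.7 and 112 CPM in WT. GFPlow was below all other libraries, as for Lta, with a log2 difference of 1.08 ± 0.20 for GFPhi over GFPlow (SE; adjusted p = 0.0335, edgeR) and -1.02 ± 0.22 for GFPlow over WT (adjusted p = 0.0480). Tbx21 and Eomes kept their calls in GFPlow over WT with each library left out. The calls of Rel, of Tbx21 for GFPhi over GFPlow and of Zfp36 were lost without any 1 of the 6 GFPhi and GFPlow libraries (adjusted p = 0.0611 to 0.174), and that of Runx3 without GFPhi library 1 or 2, any GFPlow library or WT library 1 (0.0515 to 0.137). Of 22 alternative settings, 14 kept the call of Rel for GFPhi over GFPlow and 14 that of Tbx21, while 10 kept that of Rel for GFPlow over WT. With only the GFPhi and GFPlow libraries in the fit, adjusted p were 0.00263 for Rel and 0.00479 for Tbx21 (edgeR). With all libraries and the replicate number as a block, those of GFPhi over GFPlow were 0.139 and 0.111. Over the 18 factors the median log2 difference was -0.09 for GFPhi over GFPlow, 0.41 for GFPhi over WT and 0.41 for GFPlow over WT. None was called for GFPhi over WT. For that comparison edgeR listed 3 of the 18 factors, 2 of the 9 receptors, 1 of the 9 AU-rich regulators and 0 of the 5 other ligands at an unadjusted p under 0.05, and voom called none of them. The edgeR share over all tested genes was 13.7%. DESeq2 gave an adjusted p to 6 of the factors, 1 receptor, 1 AU-rich regulator and 0 of the other ligands, and called none of these. With voom none of the calls of these 4 lists for GFPlow over WT held.

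**Figure D4:**
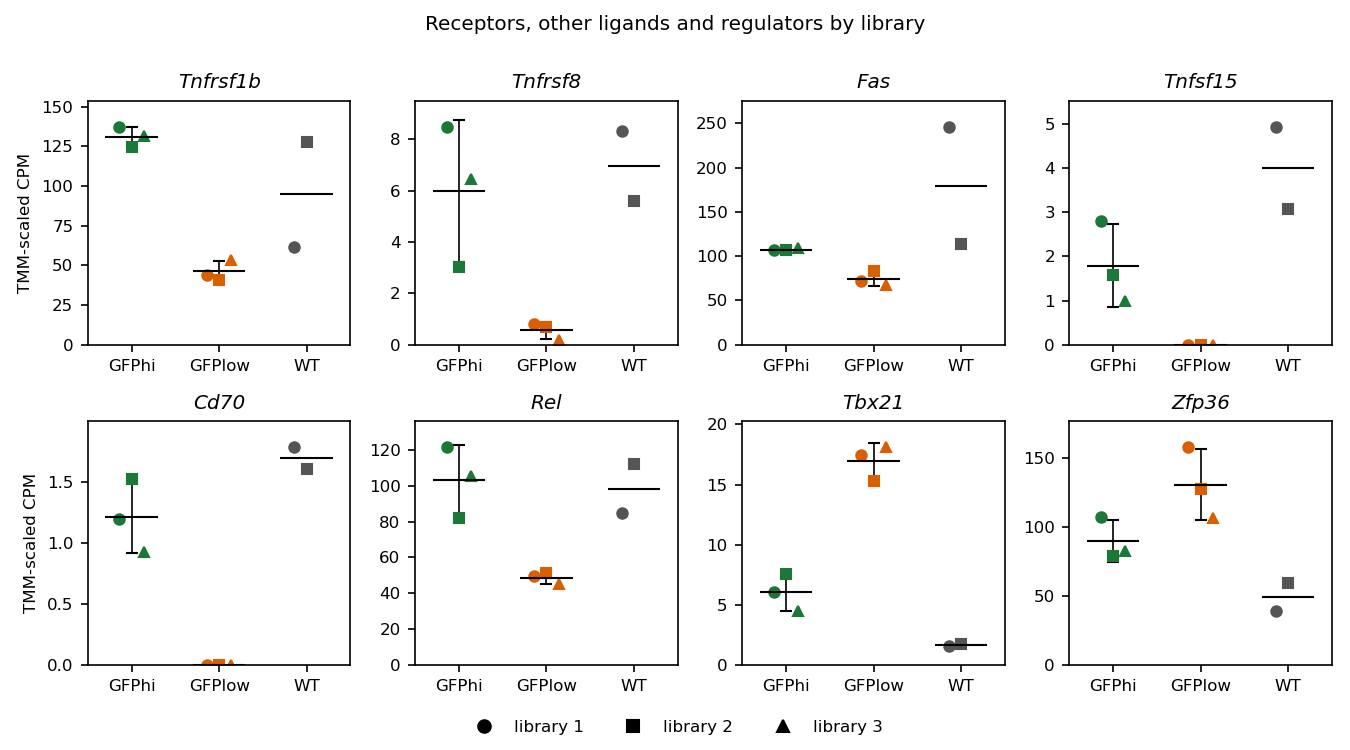
TMM-scaled CPM (y axis) of receptors, other ligands and regulators of the ligand genes in GFPhi, GFPlow and WT libraries; points are libraries, lines are means, and bars are the SD in the groups of 3 libraries. Tnfsf15 and Cd70 are at 0 in GFPlow, Rel is at 45.0 to 51.5 CPM in GFPlow and at 82.0 CPM or more elsewhere, and Tbx21 is at 15.3 to 18.1 CPM in GFPlow and at 7.57 CPM or less elsewhere.

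Markers of other cells were read as summed CPM beside the ligands. The sum of 7 myeloid markers was 1.60 to 24.8 CPM in GFPhi, 2.78 to 232 CPM in GFPlow, with the highest value in GFPlow library 3, and 9.25 and 31.6 CPM in WT. Tnf, which myeloid cells also express, was highest of its group in GFPlow library 3, at 31.2 CPM; the part of myeloid RNA in that value was not tested. The sum of 8 B cell markers was 777 to 988 CPM in GFPhi, 832 to 977 CPM in GFPlow, and 691 and 877 CPM in WT. Among them, Ms4a1 was at or below 0.828 CPM in every library, while Ighm stood at 612 to 963 CPM. Of 6 B cell markers tested, edgeR called 1 higher in GFPhi than in GFPlow and 1 lower in GFPlow than in WT. For all tested genes these shares were 1.63% and 2.23%. In the same order of groups, 6 plasma cell markers summed to 171 to 204, 123 to 145, and 82.6 and 195 CPM. For 6 neutrophil markers the sums were 0.244 to 0.963, 2.80 to 12.0, and 1.98 and 0.0172 CPM. The sum of 6 platelet markers was 0.187 to 0.640 CPM in GFPhi, 0.336 to 5.30 CPM in GFPlow, and 40.8 and 3.86 CPM in WT. Sums of 6 innate lymphoid markers, several of which T cells also express, were 112 to 131 CPM in GFPhi, 59.0 to 72.2 CPM in GFPlow, and 101 and 104 CPM in WT, and 1 of 6, Il1rl1, was called higher in GFPhi than in GFPlow (log2 difference 2.61, adjusted p = 0.0289, edgeR). For GFPhi over GFPlow, 5 of the 6 had a positive log2 difference, with a median of 1.99. For GFPlow over WT, 4 of the 6 were also positive, with a median of 1.14, although the sum was lower in GFPlow. Tnfsf11, which innate lymphoid cells also express, was low in the same 3 GFPlow libraries, and the part of such cells was not tested.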

How the data were processed

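RNA was measured in 8 libraries (kits named per the labels' protocols: Nextera XT, SMART-Seq HT). The authors deposited 1 table of raw counts per Ensembl gene, 44446215 to 55388756 per library. HISAT2 2.1.0, SAMtools 1.9, HTSeq 0.11.2, edgeR, R 4.0 and build GRCm38 are named in the submitters' processing notes; what each did, with which annotation, strand setting or filters, is not given in the sources used here, so reads of overlapping antisense genes cannot be told apart. Of 54837 identifiers, 54808 matched GENCODE vM21, whose merged exons gave the lengths.

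The counts were filtered with filterByExpr, which left 18851 genes, scaled by TMM and fitted with edgeR 4.0.16 in 1 model of all 8 libraries (1 mean per group, robust quasi-likelihood, 5 residual degrees of freedom). Tests were two-sided, with Benjamini-Hochberg adjustment over all tested genes and a threshold of 0.05. The ligand genes, lists and tests were chosen with earlier results of these data known. From every other list, genes past the threshold were named, at most 6 per comparison; Marker genes, Fas, Tnfrsf1a and Fos were named after their values were seen. Alternatives were other scalings and filters, DESeq2 1.42.0, limma 3.58.1 voom, no robust estimation, a replicate block, only the libraries compared, a log2 change above 1, and each library left out; with 1 WT library left, it was assumed to vary like the other groups. Voom and the block without WT library 1 were added after seeing the data. Simulated data with 200 changed genes served to test the fit. Counting limits of 3 reads cover counting error only. Versions were R 4.3.3, Python 3.11.15, pandas 2.3.3 and, for plots, matplotlib 3.10.9.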

Additional observations from a re-analysis of the deposited data

How the results depend on the processing

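Of 594 alternative values of the 9 ligands, 469 kept direction and side of the threshold, 42 lost a call, 49 gained one, 28 changed sign with no call in either fit, and 6, under DESeq2 for GFPhi over WT, had no adjusted p; no called value changed sign. With RLE or upper quartile scaling, the differences of Tnfsf10 and Tnfsf14 for GFPhi over WT, close to 0, changed sign, and upper quartile scaling moved the median of all genes by -0.13 for GFPhi over WT and -0.14 for GFPlow over WT. The cause of the changes below was not tested. Fits without a library hold fewer samples, and in them some counts of calls fell and others rose.

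For GFPhi over GFPlow, against 426 genes and 3 ligands called, DESeq2 called 1375 and 5, voom 2271 and 8, only the libraries compared 2105 and 7, and the same with the replicate block 1752 and 8. The replicate block called 182 genes, and a log2 change above 1 called 130. Leaving out 1 library gave 105 to 1984 genes and 2 to 7 ligands. Without WT library 1, DESeq2 called 3242 genes and 8 ligands, voom 2105 and 8, and the block 1744 and 8. For GFPhi over WT, against 0 and 0, no filter called 1 gene, DESeq2 320, only the libraries compared with the block 22, and the block without WT library 1 called 4. DESeq2 without WT library 1 called 70 genes and 1 ligand, Fasl (log2 difference 0.83, adjusted p = 0.0210). Leaving out 1 library gave 0 to 8234 genes and 0 to 5 ligands, the highest without WT library 2. For GFPlow over WT, against 623 and 5, DESeq2 called 3243 genes, voom 72 and 1 ligand, the block 158 and 3, only the libraries compared 33 and 1, the same with the block 217 and 1, and a log2 change above 1 called 184 and 1. Leaving out 1 library gave 213 to 9002 genes and 2 to 5 ligands. Without WT library 1, DESeq2 called 2444 genes and 7 ligands, voom 1418 and 6, and the block 720 and 3.

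The titles of the GFPhi and GFPlow libraries share replicate numbers, each after a letter M that the labels do not explain. Deviations from the group means of same-numbered libraries correlated at r = 0.0671, 0.0662 and 0.149 across genes, and every library correlated best with its own number. Xist was high in number 3 of both groups and low in their other numbers, so number 3 held RNA of other animals. Fos was high in number 1 of both. The labels do not state pairing, so the main fit did not use the numbers. Whether equal numbers mark the same animal was not settled. With the replicate block, Lta and Cd40lg kept their calls between GFPhi and GFPlow and Tnfsf10 did not (adjusted p = 0.0794).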

Other observations

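For each ligand past the threshold, the 3 protein-coding genes whose log2 CPM over the 8 libraries was most like it were listed among 8072 genes by Pearson r, as a description of libraries that fall into groups and share depth and scaling. They were Pafah1b3, Rabgap1l and Aig1 for Lta (r = 0.991 to 0.992). Tgfbr3, Phf20l1 and Themis were nearest to Cd40lg (r = 0.986 to 0.993), and Man2c1, Washc4 and Ctsd to Fasl (r = 0.985 to 0.991). Nearest to Tnfsf10 were Socs2, Lclat1 and Cd86 (r = 0.978 to 0.987), and to Tnfsf11 Gemin8, Dynlt3 and Rab6b (r = 0.976 to 0.983).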
